A study of Homo sapiens with 8 samples.

Results

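The 10 genes described here encode the volume-regulated anion channel and part of the machinery that moves osmolytes and chloride across the plasma membrane. They are LRRC8A, LRRC8B, LRRC8C, LRRC8D and LRRC8E, the subunits of the channel, NFAT5, SLC6A6 and SLC5A3 of the osmolyte arm, and the cation-chloride cotransporters SLC12A2 and SLC12A4. They are 10 of the 55679 gene identifiers in the deposited count table, and they were chosen by their place in this pathway and by their levels and ratios in these same 8 libraries, so those levels and ratios are given as a description, without a p-value. The pathway was of interest because the drug studied, Acetalax, was studied as a cause of oncosis, a form of death in which the cell swells.

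Each group was 1 RNA-sequencing library, and the 8 groups came from 2 lines of triple-negative breast cancer (TNBC), MDA-MB468 and BT549. Parental cells of each line and cells selected by chronic exposure (CE) to Acetalax (oxyphenisatin acetate) were each sampled without drug (control) and after 6 hours in 1 μmol/L Acetalax. The CE cells had been passaged in rising drug, from 0.2 to 40 μmol/L, and then kept without drug for 2 weeks, also in the control group. All groups carry the genetic background of an established line, each line stands for itself alone, and the methods describe a single stepwise selection of each, so CE status cannot be told apart from the history of that one selection.

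Animal cells that swell recover their volume by letting anions, potassium and small organic osmolytes leave, and water follows. The anion path is a hexameric channel of LRRC8 proteins in which LRRC8A is obligatory for function and the other subunits set what passes: channels with LRRC8D conduct taurine and other uncharged osmolytes well. In shrunken or hypertonic cells the flow is reversed, through the Na-K-2Cl cotransporter and through osmolyte carriers whose genes are induced by the transcription factor NFAT5.

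The libraries held 42261122 to 54241728 counts, a 1.28-fold range. Levels are given as counts scaled to a library total of 1000000 (CPM), with a 95% Wilson interval whose half-width was between 1.71% and 15.7% of the value for every member but LRRC8E, where it reached 56.3%. Such intervals cover counting error only, no condition has a replicate library, and in bulk RNA fewer expressing cells and less RNA per cell cannot be told apart. The markers separated the lines. EPCAM, an epithelial surface protein, was at 409 to 438 CPM in MDA-MB468 and at most 0.189 CPM in BT549, VIM, a mesenchymal filament protein, was at 1.77 to 8.94 against 864 to 1414 CPM, and EGFR was at 3285 to 10474 against 249.6 to 440.0 CPM. Of the receptors that define TNBC, ESR1 was at or under 5.15 CPM and PGR at or under 0.627 CPM, while ERBB2 was at 41.2 to 95.2 CPM in both lines. The leukocyte genes CD3E and PTPRC were at 0 and at most 0.756 CPM, and CD14 reached 47.2 CPM in MDA-MB468.

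**Figure D1:**
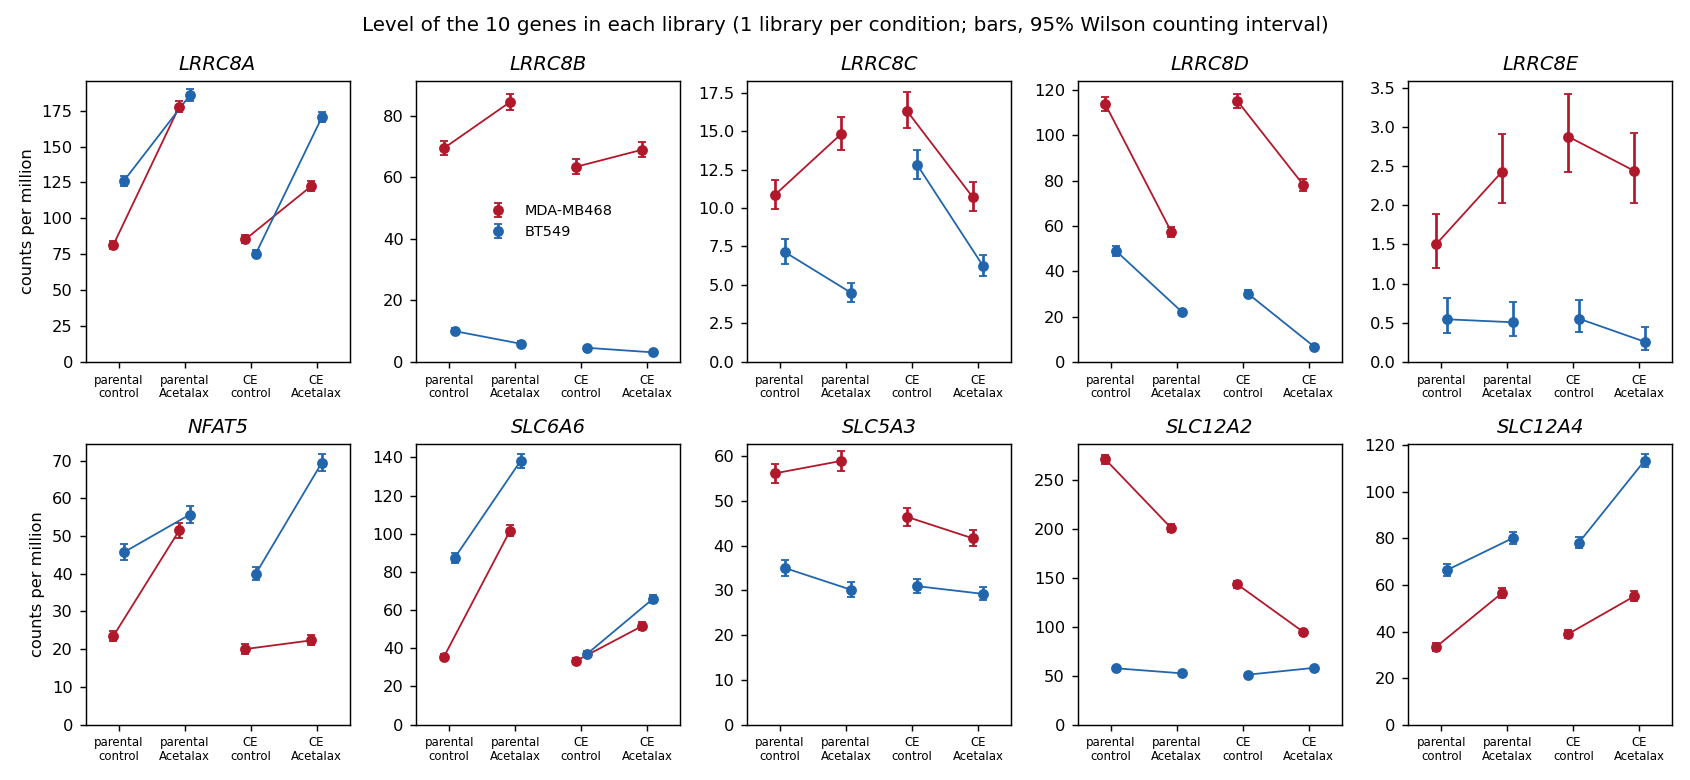
Levels of the 10 genes in CPM (vertical axes, each from 0) in the 4 conditions of each line, with MDA-MB468 in red, BT549 in blue, bars for the 95% Wilson counting interval and lines joining the control and Acetalax libraries of 1 background. LRRC8A, SLC6A6 and SLC12A4 are higher and LRRC8D is lower with Acetalax in all 4 pairs, and LRRC8B, LRRC8D, LRRC8E, SLC5A3 and SLC12A2 are higher in every MDA-MB468 library than in any BT549 library.

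LRRC8A, the obligatory subunit, lies on chromosome 9 (hg19 chr9:131644391-131680318, plus strand), and LRRC8B, LRRC8C and LRRC8D lie side by side on chromosome 1, with LRRC8D at chr1:90286573-90402170 on the plus strand. LRRC8A and LRRC8D are the subunits whose Acetalax ratios went opposite to each other in every background. The 250 bases upstream of the annotated start of each are shown because they are the promoter-proximal sequence of those members, from the RefSeq table of build GRCh38.p14, whose coordinates differ from those of hg19. LRRC8A is chr9:128881883-128882132 and LRRC8D is chr1:89820782-89821031, both on the plus strand. Capitals mark a cyclic AMP response element, TGACGTCA.
LRRC8A: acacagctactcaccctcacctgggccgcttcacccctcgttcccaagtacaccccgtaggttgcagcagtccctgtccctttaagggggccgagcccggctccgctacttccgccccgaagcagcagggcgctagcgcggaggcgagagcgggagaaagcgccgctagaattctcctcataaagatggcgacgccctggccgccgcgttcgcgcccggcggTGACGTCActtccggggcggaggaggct
LRRC8D: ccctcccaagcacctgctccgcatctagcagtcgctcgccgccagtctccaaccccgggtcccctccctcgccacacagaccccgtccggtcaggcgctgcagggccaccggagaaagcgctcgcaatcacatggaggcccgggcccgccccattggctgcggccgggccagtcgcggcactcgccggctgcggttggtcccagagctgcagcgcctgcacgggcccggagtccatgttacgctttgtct
The element starts 28 bases before the transcription start of this LRRC8A window, a further LRRC8A window in the table holds none of the motifs, and 1.65% of the 35116 windows in the table hold it. Both strands were searched, also for the AP-1 site TGACTCA, which was found in the LRRC8B window (4.2% of all windows) and overlaps no other match, and for TGGAAA, the core of the tonicity element bound by NFAT5, which was found in 1 SLC12A4 window (18% of all windows). These are matches of letters in 13 windows of the 8 members that the table holds, and neither LRRC8D window held any of the 3 motifs.

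LRRC8A was higher after Acetalax in all 4 backgrounds. In MDA-MB468 parental cells it was at 81.3 CPM in the control and 178 CPM with Acetalax, and in MDA-MB468 CE cells at 85.4 and 123 CPM. In BT549 parental cells it was at 126 and 186 CPM, and in BT549 CE cells at 75.5 and 170 CPM. Within each line the 2 treated libraries were thus above the 2 control libraries, but the lowest treated library, at 123 CPM, was below the highest control, at 126 CPM. The log2 ratios were 1.13 (95% counting interval 1.07 to 1.18) and 0.52 (0.46 to 0.58) in MDA-MB468 parental and CE cells, and 0.56 (0.51 to 0.61) and 1.18 (1.12 to 1.23) in BT549 parental and CE cells. The line with the larger ratio was therefore MDA-MB468 among parental cells and BT549 among CE cells.

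LRRC8D was lower after Acetalax in all 4 backgrounds. It was at 114 CPM in the control and 57.4 CPM with Acetalax in MDA-MB468 parental cells, and at 115 and 78.1 CPM in MDA-MB468 CE cells. In BT549 parental cells it was at 49.0 and 22.0 CPM, and in BT549 CE cells at 30.1 and 6.78 CPM, the lowest level of all 8 libraries. No treated library of a line reached a control library of that line. The log2 ratios were -0.99 (-1.05 to -0.92), -0.56 (-0.62 to -0.50), -1.15 (-1.26 to -1.04) and -2.15 (-2.32 to -1.98) in MDA-MB468 parental, MDA-MB468 CE, BT549 parental and BT549 CE cells. Among the 11135 genes that averaged 5 CPM or more, these ratios were at percentiles 3.37, 6.83, 1.91 and 1.26. The BT549 CE pair was also the pair in which most genes were lower, and its median log2 ratio over all genes was -0.19 when libraries were scaled by their totals and 0.03 with TMM scaling, under which the LRRC8D ratio was -1.93.

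LRRC8B, an accessory subunit, was mostly a gene of MDA-MB468. In that line it was at 69.4 and 84.4 CPM in parental cells and at 63.4 and 68.9 CPM in CE cells, control first. In BT549 it was at 10.0 and 5.91 CPM in parental cells and at 4.59 and 3.10 CPM in CE cells. The lowest MDA-MB468 library was thus well above the highest BT549 library. The Acetalax ratio was above 0 in MDA-MB468, at 0.28 (0.22 to 0.35) and 0.12 (0.05 to 0.19), and below 0 in BT549, at -0.76 (-0.99 to -0.53) and -0.56 (-0.86 to -0.27).

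LRRC8C, whose channels carry small anions, was higher in CE than in parental controls of both lines. Controls were at 10.8 CPM in parental and 16.3 CPM in CE cells of MDA-MB468, and at 7.12 and 12.8 CPM in BT549. With Acetalax it was at 14.8 CPM in parental and 10.7 CPM in CE cells of MDA-MB468, and at 4.48 and 6.21 CPM in those of BT549. Only in MDA-MB468 parental cells was the treated library above its control, with a log2 ratio of 0.45 (0.28 to 0.61), and the others were -0.61, -0.67 and -1.04 in MDA-MB468 CE, BT549 parental and BT549 CE cells.

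LRRC8E was the least abundant subunit. In MDA-MB468 its 4 libraries held 73, 118, 127 and 116 counts (1.501 to 2.88 CPM), and in BT549 they held 23, 22, 30 and 13 counts (0.257 to 0.553 CPM). The counting interval of the Acetalax ratio included 0 in MDA-MB468 CE (-0.61 to 0.14) and BT549 parental cells (-1.02 to 0.80), so a change there was not detectable at this depth. The ratio was 0.69 (0.26 to 1.14) in MDA-MB468 parental cells and -1.07 (-2.17 to -0.12) in BT549 CE cells, in opposite directions. Between CE and parental controls it was 0.93 (0.51 to 1.37) in MDA-MB468 and 0.02 (-0.81 to 0.87) in BT549. In addition 3218 bases of LRRC8E exons overlap a gene on the other strand, and since the strand setting of the counting is not given, reads of the 2 genes cannot be told apart.

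Set per length, as CPM per kilobase of exon (FPKM), the 5 subunits can be compared with each other within a library. In the MDA-MB468 parental control LRRC8D made up 48.1% of the summed LRRC8 FPKM and LRRC8A 32.05%. With Acetalax the order was turned, with LRRC8A at 58.9% and LRRC8D at 20.4%. In MDA-MB468 CE cells the LRRC8A share was 32.9% in the control and 47.6% with Acetalax, and the LRRC8D share 47.6% and 32.55%. In BT549 LRRC8A already led in the controls, at 66.8% in parental and 64.5% in CE cells, and it was at 86.1% and 93.3% with Acetalax. There the LRRC8D share was 27.9% in the parental and 27.6% in the CE control, against 10.97% and 3.99% with Acetalax. LRRC8B held 15.4% to 17.6% of the sum in MDA-MB468 and at most 3.34% in BT549, LRRC8C at most 4.85% and LRRC8E at most 1.33% in any library.

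The LRRC8A to LRRC8D ratio of FPKM does not depend on how libraries are scaled, since both genes are read in the same library. It was 0.666 in the control and 2.89 with Acetalax in MDA-MB468 parental cells, and 0.691 and 1.46 in MDA-MB468 CE cells. In BT549 parental cells it was 2.40 and 7.85, and in BT549 CE cells 2.33 and 23.4. The ratio was therefore 4.33-fold higher with Acetalax in parental and 2.12-fold in CE cells of MDA-MB468, and 3.28-fold and 10.0-fold higher in those of BT549. On the log2 scale these changes were 2.12 (2.03 to 2.20), 1.08 (0.997 to 1.167), 1.71 (1.59 to 1.83) and 3.33 (3.15 to 3.502). Between CE and parental controls the ratio differed by 0.05 (-0.03 to 0.14) in MDA-MB468 and -0.04 (-0.15 to 0.07) in BT549 on the log2 scale, within counting error. The summed LRRC8 FPKM was 48.7, 58.0, 49.8 and 49.4 in MDA-MB468 (parental control, parental Acetalax, CE control, CE Acetalax) and 36.2, 41.4, 22.5 and 35.1 in BT549, so the sum varied less between the treated and control libraries of a pair than the ratio of the 2 subunits did.

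**Figure D2:**
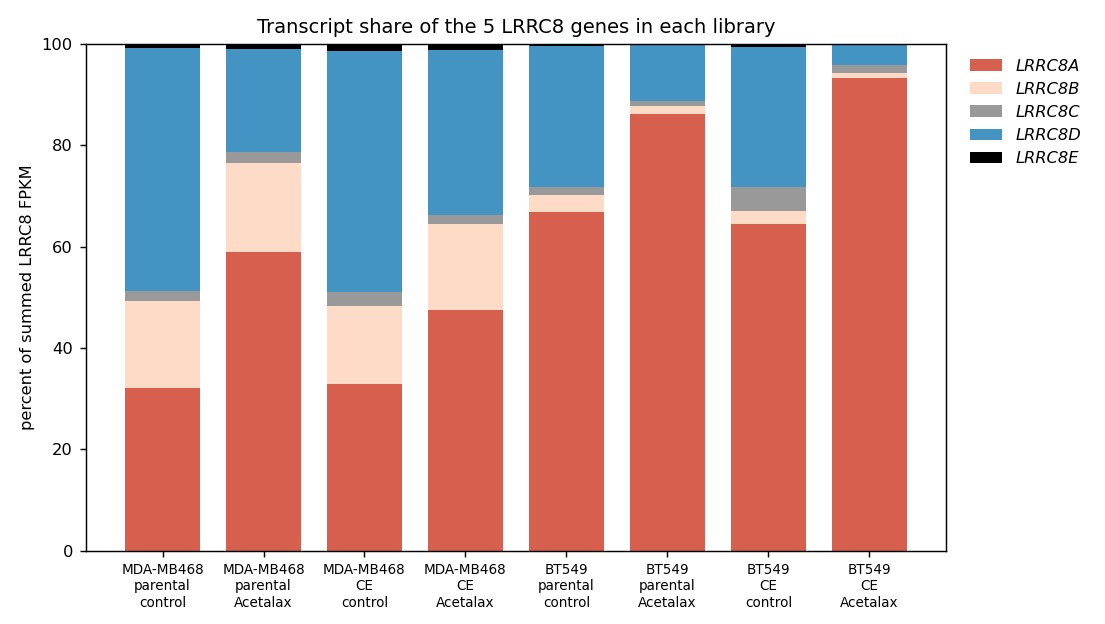
Share of each LRRC8 gene in the summed LRRC8 FPKM (vertical axis, percent), 1 stacked bar per library. The LRRC8A share is larger and the LRRC8D share smaller with Acetalax in each of the 4 pairs, from 32.05% to 58.9% for LRRC8A in MDA-MB468 parental cells and from 64.5% to 93.3% in BT549 CE cells.

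The genes whose log2 CPM was most like that of LRRC8D over the 8 libraries were DEPDC5, HDHD3, C6orf203, MTERFD2 and MRPL9, with a Pearson correlation of 0.993 to 0.995. The 8 points share 2 lines and 1 drug treatment, so the correlation is a description. DEPDC5, a member of the complex that restrains mTORC1, was at 12.5, 9.29, 12.7 and 10.6 CPM in MDA-MB468 and at 8.05, 5.15, 5.31 and 2.49 CPM in BT549, in the order parental control, parental Acetalax, CE control, CE Acetalax. MRPL9, a mitochondrial ribosomal protein gene, was also lower with Acetalax over a narrower range, from 58.8 to 46.6 CPM in MDA-MB468 parental cells and from 40.4 to 29.0 CPM in BT549 CE cells.

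SLC6A6, the taurine transporter, was higher with Acetalax in all 4 backgrounds. In MDA-MB468 it was at 35.5 and 102 CPM in parental cells and at 33.3 and 51.6 CPM in CE cells, control first. In BT549 it was at 87.3 and 138 CPM in parental cells and at 36.8 and 65.8 CPM in CE cells. The log2 ratio was 1.52 (1.44 to 1.60) for parental and 0.63 (0.54 to 0.72) for CE cells of MDA-MB468, and 0.66 (0.60 to 0.72) and 0.84 (0.76 to 0.92) for those of BT549. BT549 CE cells held less SLC6A6 than BT549 parental cells, by -1.24 (-1.32 to -1.166) in the controls, so that the CE library with Acetalax was still below the parental control. In MDA-MB468 the 2 controls were within counting error of each other (-0.09, -0.19 to 0.01), and with Acetalax the CE library was below the parental one, at -0.98 (-1.05 to -0.91).

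NFAT5, the transcription factor that responds to tonicity, was higher with Acetalax by widely different amounts. It went from 23.4 to 51.5 CPM in MDA-MB468 parental cells but from 20.02 to 22.3 CPM in MDA-MB468 CE cells. In BT549 it went from 45.7 to 55.7 CPM in parental cells and from 40.0 to 69.5 CPM in CE cells. The larger ratio was thus in parental cells of MDA-MB468, 1.14 (1.03 to 1.24) against 0.16 (0.03 to 0.29), and in CE cells of BT549, 0.80 (0.72 to 0.87) against 0.29 (0.20 to 0.37). NFAT5 shares 1588 exon bases with another gene on its own strand that is also in the table.

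SLC5A3, the sodium/myo-inositol cotransporter, stayed near its control level. It was at 56.2 and 58.9 CPM in MDA-MB468 parental cells, 46.5 and 41.7 CPM in MDA-MB468 CE cells, 35.0 and 30.1 CPM in BT549 parental cells, and 31.0 and 29.2 CPM in BT549 CE cells, control first. Its Acetalax log2 ratios lay between -0.22 and 0.07, and their counting interval included 0 in MDA-MB468 parental (-0.01 to 0.15) and BT549 CE cells (-0.18 to 0.02). In BT549 CE cells the sign depended on the scaling, with -0.08 by total counts and 0.13 by TMM. SLC5A3 and SLC6A6, both known targets of NFAT5, therefore differed in these libraries. SLC5A3 shares 265 exon bases with MRPS6 on the same strand.

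SLC12A2, the Na-K-2Cl cotransporter NKCC1 that loads cells with chloride, was lower in treated and in CE cells of MDA-MB468. In that line it was at 272 and 201 CPM in parental cells and at 144 and 94.8 CPM in CE cells, control first, so that all 4 libraries stood apart in this order. The BT549 libraries were close together, with 57.7 and 52.5 CPM in parental and 51.1 and 58.1 CPM in CE cells. The Acetalax log2 ratio was -0.43 (-0.47 to -0.40) and -0.60 (-0.65 to -0.54) in MDA-MB468 parental and CE cells, and -0.14 (-0.22 to -0.05) and 0.18 (0.11 to 0.26) in BT549. The CE minus parental ratio of the controls was -0.92 (-0.96 to -0.88) in MDA-MB468 and -0.17 (-0.25 to -0.09) in BT549.

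SLC12A4, the K-Cl cotransporter KCC1 that lets potassium and chloride out of swollen cells, was higher with Acetalax in all 4 backgrounds. It was at 33.4 and 56.6 CPM in MDA-MB468 parental cells and at 38.9 and 55.1 CPM in MDA-MB468 CE cells. In BT549 it was at 66.3 and 80.1 CPM in parental cells and at 78.1 and 114 CPM in CE cells. The log2 ratios were 0.76 (0.67 to 0.85), 0.50 (0.41 to 0.59), 0.27 (0.20 to 0.34) and 0.54 (0.48 to 0.60). CE controls were above parental controls by 0.22 (0.12 to 0.32) in MDA-MB468 and 0.24 (0.17 to 0.30) in BT549.

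Per length, the SLC12A2 to SLC12A4 ratio of FPKM was 6.41 in the MDA-MB468 parental control, 2.80 with Acetalax, 2.91 in the CE control and 1.36 in CE cells with Acetalax. The BT549 values were 0.685 and 0.516 in parental and 0.516 and 0.404 in CE cells, control first. By this measure the chloride loader was therefore the higher transcript in every MDA-MB468 library and the lower one in every BT549 library. Which gene is higher rests on the exon lengths used, 10653 bases for SLC12A2 and 8397 for SLC12A4, and no other lengths were tried. In both lines the ratio was highest in untreated parental cells and lowest in treated CE cells, an order that the lengths do not affect.

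**Figure D3:**
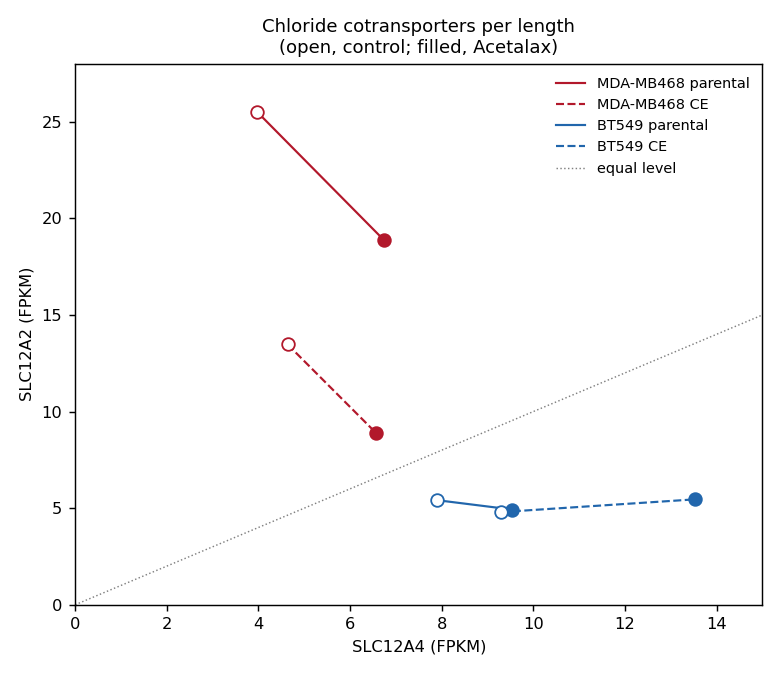
SLC12A2 (vertical axis) against SLC12A4 (horizontal axis), both in FPKM, with open circles for control and filled circles for Acetalax libraries, solid lines for parental and dashed lines for CE cells. The MDA-MB468 libraries lie above the dotted line of equal level and approach it from 6.41 to 1.36 in the ratio, and the BT549 libraries lie below it at 0.404 to 0.685.

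The members were set against all genes that averaged 5 CPM or more, of which there were 11135 and to which 9 members belong (all but LRRC8E), by counting those past a log2 ratio of 0.5, a 1.41-fold change. In MDA-MB468 parental cells 4 members were past it upward with Acetalax (LRRC8A, NFAT5, SLC6A6 and SLC12A4), beside 12.2% of all genes, and LRRC8D was past it downward, beside 15.6%. In MDA-MB468 CE cells LRRC8A, SLC6A6 and SLC12A4 were past it upward, beside 8.3% of genes, and LRRC8C, LRRC8D and SLC12A2 downward, beside 8.52%. SLC12A4 passed there by less than its counting error, at 0.50.

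In BT549 parental cells 2 members, LRRC8A and SLC6A6, were past 0.5 upward, beside 6.04% of genes, and LRRC8B, LRRC8C and LRRC8D were past it downward, beside 15.6%. In BT549 CE cells the same 4 members as in MDA-MB468 parental cells were past it upward, beside 11.2% of genes, and LRRC8B, LRRC8C and LRRC8D downward, beside 29.7%. The median over the 9 members was 0.45, 0.12, -0.14 and 0.18 in MDA-MB468 parental, MDA-MB468 CE, BT549 parental and BT549 CE cells, beside -0.09, -0.05, -0.11 and -0.19 over all genes. These ratios helped to choose the members, so nothing is read from the counts.

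**Figure D4:**
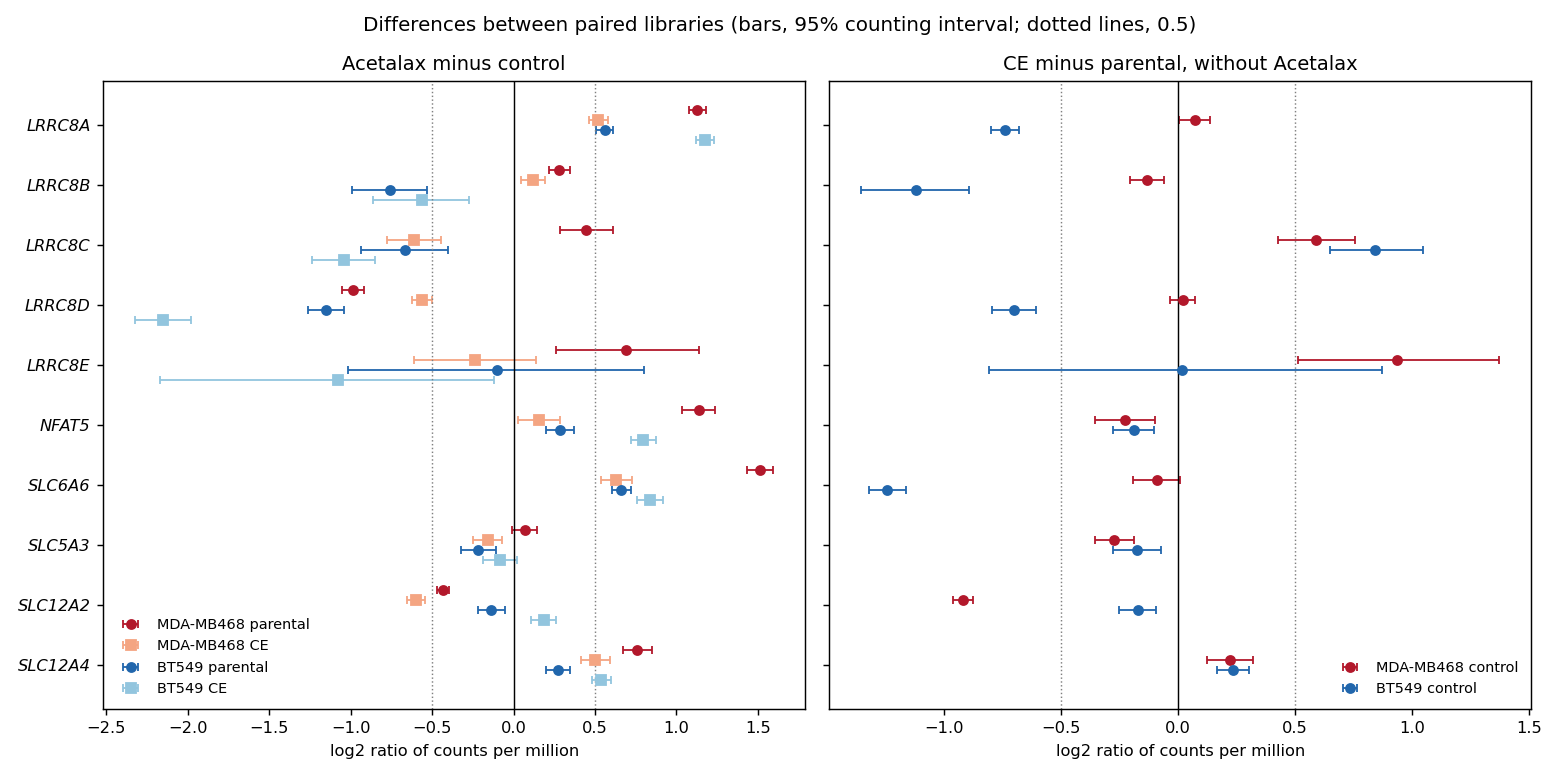
Log2 ratio of CPM (horizontal axes) for the 10 genes, Acetalax minus control in the 4 backgrounds at left and CE minus parental without drug in the 2 lines at right, with bars for the 95% counting interval and dotted lines at 0.5 in each direction. LRRC8A, SLC6A6 and SLC12A4 lie right of 0 and LRRC8D left of 0 in all 4 Acetalax pairs, while the CE ratios of LRRC8A, LRRC8B, LRRC8D and SLC6A6 are past 0.5 downward in BT549 alone.

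Between CE and parental controls fewer members were past 0.5 in MDA-MB468 than in BT549. In MDA-MB468 LRRC8C was past it upward, beside 6.36% of genes, and SLC12A2 downward, beside 5.28%. In BT549 LRRC8C was past it upward, beside 17.3%, and LRRC8A (-0.74), LRRC8B (-1.12), LRRC8D (-0.70) and SLC6A6 (-1.24) downward, beside 17.6%. These CE pairs use the same control libraries as the Acetalax pairs. For LRRC8D the order of CE and parental cells turned between the lines under drug. With Acetalax the CE library was above the parental one in MDA-MB468, by 0.44 (0.37 to 0.52), and below it in BT549, at -1.70 (-1.88 to -1.52). For NFAT5 it turned the other way, at -1.20 (-1.31 to -1.10) in MDA-MB468 and 0.32 (0.24 to 0.39) in BT549.

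With the 4 backgrounds taken as the 4 pairs of 1 fit, edgeR's quasi-likelihood test over 19693 genes called 536 genes higher with Acetalax (2.72%) and 448 lower (2.27%) at an adjusted p of 0.05. The rule that chose the members used this contrast, so their calls are a description from which nothing is read. LRRC8A (log2 fold change 0.94, SE 0.15), SLC6A6 (1.00, SE 0.16) and SLC12A4 (0.61, SE 0.11) were among those called higher and LRRC8D (-1.11, SE 0.22) among those called lower. NFAT5, at 0.69 (SE 0.18), was not called, but it was with DESeq2 and with edgeR run on all genes with a count, and LRRC8B, LRRC8C, LRRC8E, SLC5A3 and SLC12A2 lay between -0.38 and -0.01. Scaling by total counts moved the split of all calls to 374 higher and 685 lower and the median fold change of all genes from -0.04 to -0.13, with the 4 members on the same sides. The calls were sensitive to the libraries while the estimates were less so. Without the MDA-MB468 parental pair edgeR called no gene at the adjusted threshold (3491 at an unadjusted p under 0.05), with estimates of 0.86 for LRRC8A, -1.16 for LRRC8D, 0.82 for SLC6A6 and 0.55 for SLC12A4. SLC12A4 lost its call without any one of the 4 pairs, and LRRC8D and SLC6A6 also lost theirs without the BT549 parental pair. edgeR called none when restricted to the 11135 genes averaging 5 CPM or more (3737 unadjusted), where the smallest adjusted p was 0.0502, whereas DESeq2 on all 4 pairs called 2684.

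The same fit for CE against parental cells called 12 genes higher (0.0609%) and 11 lower (0.0559%), and none of the 10 members. At an unadjusted p under 0.05 it held 2915 genes with 2 members, LRRC8B and SLC6A6, and DESeq2 called 916 genes with SLC6A6 alone of the members. The estimate of SLC6A6 was -0.82 (SE 0.19), that of LRRC8B -0.58 and that of SLC12A2 -0.48. The effect of Acetalax was not called as different between CE and parental cells for any gene (0.0% of genes). At an unadjusted p under 0.05 there were 91, and 95 with DESeq2 size factors in edgeR. That fit took 1 such difference for both lines, so it could not pick up differences that ran opposite ways in them. LRRC8A was such a case, at 1.13 in parental and 0.52 in CE cells of MDA-MB468, but 0.56 and 1.18 in BT549. Nothing is concluded from the absence of calls. The difference between lines in the Acetalax effect was called for 1.78% of genes and none of the members. Of the members, LRRC8B, LRRC8D and SLC12A2 were at an unadjusted p under 0.05. The difference between lines in the CE effect was called for 12.2% of genes, and the estimates of LRRC8D (-1.28, SE 0.31, BT549 minus MDA-MB468) and SLC12A2 (1.12, SE 0.18), which are among them, are likewise a description.

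The lines themselves differed in most genes, with 27.3% of those tested called higher in BT549 and 29.5% lower, and the calls of the members, whose levels were known when they were chosen, are a description here too. NFAT5 (1.09), SLC12A4 (1.05) and SLC6A6 (0.72) were called higher in BT549, and LRRC8B (-3.56), LRRC8E (-2.16), LRRC8D (-1.82), SLC12A2 (-1.43) and SLC5A3 (-0.52) lower, on the log2 scale. Of the 9 members that averaged 5 CPM or more, SLC12A4 was higher in every BT549 library than in any MDA-MB468 library, as were 24.1% of such genes, and LRRC8B, LRRC8D, SLC5A3 and SLC12A2 were lower in every one, as were 31.6%. The levels of LRRC8A, LRRC8C, NFAT5 and SLC6A6 overlapped between the lines. Ranked per length by mean FPKM over the 4 libraries of MDA-MB468, LRRC8A (22.4), LRRC8D (18.8) and SLC12A2 (16.7) led, with ranges over conditions that overlapped. They were followed by LRRC8B (8.65), SLC6A6 (6.72), SLC12A4 (5.48) and SLC5A3 (4.39), and NFAT5 (1.45), LRRC8C (1.12) and LRRC8E (0.534) were lowest. In BT549 LRRC8A (26.8) led, with every library above those of SLC12A4 (10.1) but not of SLC6A6 (9.93), whose range of 4.46 to 16.7 overlapped that of LRRC8A, 14.5 to 35.7. LRRC8D (5.56) and SLC12A2 (5.15) followed, then SLC5A3 (2.71), NFAT5 (2.60), LRRC8B (0.714), LRRC8C (0.653) and LRRC8E (0.108).

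Other genes of cell volume control were read from 4 lists. Of 9 osmolyte and hypertonic-stress genes 6 were tested. The Acetalax fit called 2 of them, both higher, beside 2.72% of all genes called higher and 2.27% lower. At an unadjusted p under 0.05 were 5, SLC38A2, HSPA4L, S100A4, SGK1 and SLC6A8, and DESeq2 called 3, SLC38A2, HSPA4L and SGK1. HSPA4L and S100A4 were lower with Acetalax in all 4 pairs. SGK1, a kinase that acts on transporters under hormonal and osmotic stress, was at 10.2 and 31.4 CPM in parental and 4.62 and 10.1 CPM in CE cells of MDA-MB468, and at 131 and 347 CPM in parental and 143 and 807 CPM in CE cells of BT549, control first, a log2 fold change of 1.77 (SE 0.22). SLC38A2, an amino acid transporter induced by hypertonicity and by amino acid lack, was at 270.3 and 412.5, 271 and 308, 809 and 1674, and 1150.0 and 2929 CPM in these backgrounds, a log2 fold change of 0.89 (SE 0.19). The median of the 6 was 0.19, beside -0.04 over all genes. HSPA1B had 1 count in the BT549 CE control and 0 elsewhere, and was not tested. How its reads were assigned was not checked, so these counts are not read as absence of its RNA.

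Of the 11 other volume-linked channels and regulators, the Acetalax fit called CLCN3 lower and TTYH1 higher, beside 2.27% and 2.72% of all genes. TTYH1 was under 5 CPM in every library. DESeq2 called the same genes, and KCNMA1 and ANO6 were also at an unadjusted p under 0.05 by edgeR. The ANO6 pair ratios were 0.65, -0.18, 0.40 and 0.89 in MDA-MB468 parental, MDA-MB468 CE, BT549 parental and BT549 CE cells. Those of KCNMA1 were 1.02, 0.20, 0.09 and 0.19. CLCN3, an endosomal chloride-proton exchanger, was at 62.7 and 39.9 CPM in parental and 61.6 and 43.4 CPM in CE cells of MDA-MB468, and at 37.8 and 20.05 CPM in parental and 43.1 and 19.8 CPM in CE cells of BT549, a log2 fold change of -0.71 (SE 0.12). The treated library was below its control in all 4 pairs. The list's median was -0.04, beside -0.04 over all genes.

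None of the 6 tested cation-chloride cotransporters beside the members and none of the 6 kinases of the WNK pathway, which switch these cotransporters by phosphorylation, was called with Acetalax by edgeR, with medians of -0.52 and -0.03. At an unadjusted p under 0.05 each list held 1 gene, SLC12A7 and OXSR1, and DESeq2 called 1, OXSR1. SLC12A7 had a log2 fold change of 0.39 (SE 0.12) and OXSR1, a kinase of SLC12A2, one of 0.40 (SE 0.09). The CE fit by edgeR called no gene of the 4 lists, with 5 at an unadjusted p under 0.05 (STK39, HSPA4L, SLC12A8, SLC12A9 and KCNK5), and DESeq2 called HSPA4L. TRPM4, the cation channel studied as the drug's target, was at 49.0, 47.8, 60.2 and 59.0 CPM in MDA-MB468 and at 20.1, 14.4, 31.6 and 20.5 CPM in BT549 (parental control, parental Acetalax, CE control, CE Acetalax), with log2 fold changes of -0.20 (SE 0.13) for Acetalax and 0.47 (SE 0.13) for CE status, neither called. In the CE fit by edgeR TRPM4 was at an unadjusted p under 0.05, and DESeq2 did not call it. Its CE minus parental ratio in the controls was 0.30 (0.22 to 0.38) in MDA-MB468 and 0.65 (0.53 to 0.77) in BT549. These values are RNA and not protein. By Western blot the study found TRPM4 protein almost undetectable in the CE cells of both lines, while it described the transcript as unchanged. It also reported from microscopy that resistant cells did not enlarge under Acetalax.

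Between the lines the calls in these lists were 4 higher and 1 lower in BT549 of the 6 osmolyte genes, 3 higher and 4 lower of the 11 channels, 2 higher and 2 lower of the 6 kinases, and 2 higher and 1 lower of the 6 cotransporters. Over all genes tested 27.3% were called higher in BT549 and 29.5% lower, so nothing is read from these counts. SGK1 (4.74), SLC6A8 (2.62), HSPA4L (2.58) and SLC38A2 (2.39) were called higher in BT549 and S100A4 (-3.61) lower, with the estimates on the log2 scale. KCNMA1 (4.37) and ANO6 (0.74) were higher and KCNN4 (-4.63), ANO1 (-6.11) and CLCN3 (-0.68) lower. KCNK5, a swelling-sensitive potassium channel, was at 19.5 to 40.1 CPM in MDA-MB468 and had no count in any BT549 library. OXSR1 (1.39) and WNK1 (0.72) were higher and WNK2 (-7.18) and STK39 (-1.33) lower, and SLC12A7, a further K-Cl cotransporter, was higher (2.99).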

How the data were processed

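RNA was measured by poly(A)-selected, directional, paired-end RNA-seq in 8 libraries, 1 per condition. The deposited values are raw counts per gene, which the authors made by aligning reads to hg19 and counting with STAR (2.7.11b in the processing notes, another version in the methods). Annotation and strand setting are not given in the sources used here. Beside the overlaps named above, exons of LRRC8C (325 bases), LRRC8D (329) and SLC12A4 (336) overlap other counted genes on the same strand. Exons of LRRC8B (918 bases) and SLC6A6 (243) overlap counted genes on the other strand. Repeated identifiers, LRRC8C among them, were used once. CPM used all counts of a library, and FPKM the union of exons in GENCODE for GRCh37. No other gene length was tried, so shares, ratios and rankings of FPKM between genes depend on that choice. Pair ratios added 0.5 to each count and had exact binomial intervals, and the LRRC8A to LRRC8D change a delta-method interval. edgeR 4.0.16 (TMM, filterByExpr, quasi-likelihood test, Benjamini-Hochberg) fitted 4 pairs per comparison with 3 residual degrees of freedom, its SE being the absolute log2 fold change over the square root of F. The pairs come from 2 lines and share libraries between comparisons. DESeq2 1.42.0, other scalings, filters and pseudocounts and leaving out each pair were the alternatives. The fits were run on simulated counts with a single spread beyond counting error (dispersion) for all genes. It was below the common dispersion of the Acetalax (0.0358), CE (0.0745) and line (0.099) fits, so the simulation does not show their error rate here. The rule named all members, called list genes averaging 5 CPM or more, the 5 genes most like LRRC8D, and TRPM4. OXSR1, SLC12A9, TTYH1 and HSPA1B were named after their values were seen. The members and lists were chosen with earlier results of these data known.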

Additional observations from a re-analysis of the deposited data

Results flagged for a closer look

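These genes had effects that differed between the lines by edgeR's test of the difference itself, as BT549 minus MDA-MB468 on the log2 scale. For the CE effect the difference was -1.28 (SE 0.31) for LRRC8D and 1.12 (SE 0.18) for SLC12A2 among the members, which were chosen with these values known. Among the other volume genes it was 2.56 (SE 0.33) for SLC12A8, 2.21 (SE 0.36) for SGK1, 1.0 (SE 0.17) for SLC38A2, 0.9 (SE 0.17) for S100A4 and 0.73 (SE 0.19) for SLC12A7. It was -5.76 (SE 0.26) for ANO1, -2.37 (SE 0.14) for AKR1B1, -2.02 (SE 0.27) for KCNMA1 and -0.84 (SE 0.2) for STK39. For the Acetalax effect the difference was -2.05 (SE 0.33) for SLC12A8 and -1.14 (SE 0.2) for STK39. Each line is 1 selection and 1 library per condition, so the difference is between these lines and selections.

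AKR1B1, aldose reductase, which makes the osmolyte sorbitol, was at 94.4 CPM in the MDA-MB468 parental control and 462 CPM in the CE control, and at 128 and 111 CPM in BT549. ANO1, a calcium-activated chloride channel, was at 133 and 172 CPM in the MDA-MB468 controls, and in BT549 it was at 10.6 CPM in the parental and 0.184 CPM in the CE control. SLC12A8 was at 17.5 and 18.0 CPM in the MDA-MB468 controls and at 3.90 and 33.4 CPM in those of BT549.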

How the results depend on the processing

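LRRC8A, LRRC8D, SLC6A6 and SLC12A4 kept the direction of their Acetalax fold change under every alternative run. Each of these genes had the same sign in every Acetalax pair, and the pair ratios helped to choose the members. Leaving out or splitting pairs could therefore hardly reverse the direction, and nothing is read from its being kept. The number of genes called for Acetalax, 984, was 2684 with DESeq2, 3585 with all genes that had a count and 0 with a mean of at least 5 CPM. In a fit of all 8 libraries with separate Acetalax terms for parental and CE cells, each term called 0 genes. At an unadjusted p under 0.05 the parental term held 1710 genes and the CE term 2311. When a pair was left out, 0 to 554 genes were called. The number of members called was 0 with the 5 CPM minimum, 0 for the parental term, 0 for the CE term, and 0 to 3 without a pair. The lowest values are those without the MDA-MB468 parental pair, and without the BT549 parental pair only LRRC8A was called. Fold changes near 0 changed sign. LRRC8E was 0.002 with all genes, 0.42 for the parental term and -0.33 to 0.21 without a pair. SLC5A3 was 0.0015 with DESeq2 size factors, 0.0011 with DESeq2, 0.008 with all genes and -0.0408 to 0.0569 without a pair. LRRC8B was -0.277 to 0.0829 without a pair.

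The CE fit called 23 genes, and 916 with DESeq2 (1 member), 446 with all genes, 0 with the 5 CPM minimum, 0 in the control libraries alone and 0 to 10 without a pair. Its LRRC8E fold change was -0.21 to 0.32 and that of NFAT5 -0.55 to 0.0309 without a pair. The line fit called 11188 genes, and 6566 with the 5 CPM minimum, where fewer genes were tested. The difference in the Acetalax effect by CE status was 0.0297 for SLC5A3 with DESeq2 size factors and -0.004 with TMM.

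Counts of all genes past 0.5 fell with log2(FPKM + 1), which shrinks low genes: with Acetalax there were 979 lower in parental and 525 higher and 463 lower in CE cells of MDA-MB468, and 363 higher and 661 lower in parental and 2004 lower in CE cells of BT549, and for CE controls 348 higher and 300 lower in MDA-MB468 and 1285 lower in BT549. The count higher in BT549 CE cells was 1996 with TMM and 1941 with DESeq2 size factors. The share higher in MDA-MB468 CE controls was 9.63% with a mean of at least 1 CPM. Of 320 alternative values of the members' pair ratios, 236 were within the counting interval and 0 of those past 0.5 changed sign. With 1 library per condition no replicate spread is known, and low counts limit LRRC8E most.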
